A study of Mus musculus with 22 samples.

Results

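The Cyp3a cytochrome family was followed through RNA of mouse hepatoblastoma, of the same kind of tumor after its driver YAP1 was switched off, and of liver. Its members are 8 genes chosen by symbol (Cyp3a11, Cyp3a13, Cyp3a16, Cyp3a25, Cyp3a41a, Cyp3a41b, Cyp3a44 and Cyp3a59) out of 36555 genes in the RNA table, and all 8 were found and passed the filter on low values. The tumors and the livers differed in which members they used. Day 6 tumors (YAP1 OFF) had the highest levels of Cyp3a16, Cyp3a41a, Cyp3a41b and Cyp3a44. Cyp3a11 was lower in both tumor groups than in hbHep and FAH liver, and made up most of the family's RNA in every group but day 6 tumors.

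CYP3A enzymes are heme proteins of the endoplasmic reticulum that oxidise drugs, steroids and bile acids, with electrons passed on by P450 oxidoreductase. In hepatocytes their genes are known to respond to foreign compounds through the nuclear receptors PXR (Nr1i2) and CAR (Nr1i3), and to depend on liver factors such as HNF4A. In mice the members differ in use: Cyp3a11 is the main form of adult liver in both sexes and the usual counterpart of human CYP3A4, Cyp3a13 is also known from the intestine, Cyp3a16 is known from fetal and young liver, and Cyp3a41a, Cyp3a41b and Cyp3a44 are known as forms of female liver, where the pattern of growth hormone release sets many sex differences.

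The 14 RNA samples fell into 4 groups. The hbHep group was liver of 3 mice with the FAH Delta Exon 5 genotype, at days 121, 114 and 117 for mice 1, 2 and 3. By the series' title these are hepatocyte-like cells into which tumor cells differentiate when YAP1 is inhibited, and no label says that they were separated from host liver. Day 6 tumors were 4 hepatoblastomas of 1 mouse 6 days off doxycycline (YAP1 OFF), and YAP1on tumors were 4 hepatoblastomas of 1 mouse on doxycycline (YAP1 ON). Both tumor mice were of the B6N.FVB(Cg) strain with Tg(CAG-rtTA3)4288Slowe/J, a transgene that makes the doxycycline-dependent activator rtTA3 from the broadly active CAG promoter. FAH liver was that of 3 mice with the same FAH Delta Exon 5 genotype as the hbHep mice, kept on NTBC, a drug that protects mice without the tyrosine-degrading enzyme FAH. Open chromatin was mapped by ATAC-seq in 1 library each of YAP1on tumor, of days 14, 33 and 64 off YAP1, and of liver labelled WT, with no genotype given. The labels state neither sex nor age. Each tumor group was 1 mouse, so treatment and mouse cannot be told apart between them, and strain cannot be told apart from group where tumors are set against hbHep or FAH liver. The p-values measure the spread between these tumors and mice.

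Levels are given as abundance, the deposited signal read here as scaled reads per base, rescaled between libraries. It is per length of transcript, so levels can be set side by side between genes. The signal of a sample summed to 16 to 42.1 M (M for the metric prefix mega), and the number of reads behind it is unknown. Yap1 was lower in day 6 tumors than in YAP1on tumors (log2 fold change -2.80, SE 0.18, limma adjusted p = 5.76e-08). Tests were limma's on log2(abundance + 1) over 17958 genes (Benjamini-Hochberg, called under an adjusted p of 0.05). A log2 fold change on this scale understates changes of low genes. The 6 comparisons share their samples and are not independent of each other. The table was made with kallisto, which divides reads between similar transcripts by estimation, so values of single members, above all of the near-identical Cyp3a41a and Cyp3a41b, are less certain than their sum.

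On the GRCm38.p6 build 7 members lie together on chromosome 5. In order they are Cyp3a16 (145436309 to 145469740), Cyp3a41b (145558664 to 145584732), Cyp3a41a (145694049 to 145720136), Cyp3a44 (145773983 to 145805891), Cyp3a11 (145854607 to 145879854), Cyp3a25 (145977192 to 146009644) and Cyp3a59 (146079208 to 146114978). Cyp3a13 lies apart at 137892933 to 137925610 on the same chromosome. Cyp3a59 is on the plus strand and the other 7 are on the minus strand. The cluster thus holds the members that were high in day 6 tumors next to each other, followed by Cyp3a11, Cyp3a25 and Cyp3a59.

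The 250 bases before the RefSeq start of 5 members are printed because they show which members have near copies of each other's promoter. They are read 5′ to 3′ on the gene's own strand, which is minus for all 5, from chr5:145469724-145469973 (Cyp3a16), chr5:145720137-145720386 (Cyp3a41a), chr5:145805875-145806124 (Cyp3a44), chr5:145879855-145880104 (Cyp3a11) and chr5:146009619-146009868 (Cyp3a25), GRCm38.p6. Capitals mark each match on either strand to CAAAGTCCA (a word of HNF4 sites), TGTTTAC (of forkhead factor sites), AGGTCA (the half-site of many nuclear receptors) or TATAA (of TATA boxes).
Cyp3a16: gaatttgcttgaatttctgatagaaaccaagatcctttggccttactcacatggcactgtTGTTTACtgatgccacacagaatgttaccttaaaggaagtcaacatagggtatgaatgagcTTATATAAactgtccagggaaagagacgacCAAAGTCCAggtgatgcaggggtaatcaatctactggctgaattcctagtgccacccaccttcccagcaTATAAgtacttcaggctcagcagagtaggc
Cyp3a41a: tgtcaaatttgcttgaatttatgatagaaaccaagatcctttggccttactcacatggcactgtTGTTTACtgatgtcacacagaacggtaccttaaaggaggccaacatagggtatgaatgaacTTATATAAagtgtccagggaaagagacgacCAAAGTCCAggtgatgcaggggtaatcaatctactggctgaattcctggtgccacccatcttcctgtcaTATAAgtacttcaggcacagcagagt
Cyp3a44: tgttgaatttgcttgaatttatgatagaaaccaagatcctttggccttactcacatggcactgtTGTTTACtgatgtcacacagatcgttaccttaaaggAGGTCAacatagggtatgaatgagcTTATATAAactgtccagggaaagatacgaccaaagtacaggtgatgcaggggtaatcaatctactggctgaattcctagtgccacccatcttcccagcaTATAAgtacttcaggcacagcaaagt
Cyp3a11: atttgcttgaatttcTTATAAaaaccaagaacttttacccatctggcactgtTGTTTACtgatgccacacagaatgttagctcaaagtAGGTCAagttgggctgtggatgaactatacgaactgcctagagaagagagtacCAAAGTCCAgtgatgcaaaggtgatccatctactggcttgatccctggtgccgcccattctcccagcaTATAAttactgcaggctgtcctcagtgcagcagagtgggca
Cyp3a25: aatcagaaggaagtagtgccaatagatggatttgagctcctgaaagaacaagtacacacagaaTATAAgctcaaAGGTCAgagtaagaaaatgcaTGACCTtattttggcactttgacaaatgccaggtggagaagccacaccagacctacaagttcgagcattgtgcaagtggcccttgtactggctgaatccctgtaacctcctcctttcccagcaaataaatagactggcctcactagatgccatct

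These promoters form 3 sets. In pairwise alignments the promoters of Cyp3a41a and Cyp3a41b were identical at 249 of 250 positions (99.6%). The Cyp3a44 promoter was 94.4% identical to that of Cyp3a41a and 92.9% to that of Cyp3a16, and Cyp3a16 and Cyp3a41a were 90.9% identical. Cyp3a11 was 76.2% identical to Cyp3a16 and 71.7% to Cyp3a44. Cyp3a25 and Cyp3a59 were 94.8% identical to each other, and Cyp3a25 was 49.8 to 52.7% identical to Cyp3a11, Cyp3a16, Cyp3a41a, Cyp3a41b and Cyp3a44. Cyp3a13 was 47.5 to 56.2% identical to the other 7. Its promoter in the RefSeq table precedes a start at 137921619, which is inside the span of the gene.

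The words were chosen after the sequences had been seen, and a match describes letters, not a bound site. CAAAGTCCA occurred in Cyp3a11, Cyp3a16, Cyp3a41a and Cyp3a41b, with its first base 95 to 109 bases before the start, and in 0.381% of 27025 RefSeq mouse promoters of this length. TGTTTAC occurred in these 4 and in Cyp3a44, against 3.09% of all promoters. AGGTCA occurred in Cyp3a11, Cyp3a44, Cyp3a25 and Cyp3a59, against 13.8%. In Cyp3a25 and Cyp3a59 it occurred once in each direction. TATAA occurred in 7 members and not in Cyp3a13, against 23.5%, and in TTATATAA its matches on the 2 strands overlap. TTCNNNGAA, the word of STAT sites, occurred in no member's window, against 7.18%. Cyp3a13 held none of these 5 words.

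The tumor groups, YAP1 OFF for 6 days and YAP1 ON, were compared first. In day 6 tumors 7 of 8 members were higher than in YAP1on tumors and 0 were lower, where 12.8% of all genes tested were called higher and 10.9% lower. The 7 members ranged from 2.33-fold for Cyp3a13 to 91.2-fold for Cyp3a44. The median log2 fold change of the 8 members was 2.68, against 0.02 over all genes tested. In bulk tissue, more RNA per cell and a larger share of cells that make it cannot be told apart.

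Cyp3a44 had the largest difference between the tumor groups. It stood at 7156, 10240, 3890 and 8437 in day 6 tumors, against 53.7, 93.7, 66.3 and 98.7 in YAP1on tumors (log2 fold change 6.51, SE 0.33, limma adjusted p = 6.22e-09). The lowest day 6 tumor was thus far above the highest YAP1on tumor. Cyp3a16 stood at 15476, 20446, 10304 and 17964 in day 6 tumors, against 340, 622, 748 and 554 in YAP1on tumors (28.5-fold, or 4.84 on the log2 scale with SE 0.24, limma adjusted p = 5.77e-09). Tumor 3 was the lowest of the day 6 tumors for both genes and tumor 2 the highest.

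Cyp3a41a and Cyp3a41b, near copies of one gene, followed the same pattern at different levels. Cyp3a41a was the most abundant member in day 6 tumors, at 26269, 30027, 13925 and 27130, against 1208, 1924, 1956 and 2107 in YAP1on tumors (13.3-fold, or 3.73 on the log2 scale with SE 0.36, limma adjusted p = 2.5e-06). Cyp3a41b stood at 6606, 8780, 3937 and 7507 in day 6 tumors, against 59.1, 176, 120 and 66.8 in YAP1on tumors (log2 fold change 6.06, SE 0.63, limma adjusted p = 5.08e-06). Their sum, which does not depend on how reads were divided between them, averaged 31045 ± 9134 in day 6 tumors and 1904 ± 427 in YAP1on tumors (SD, n = 4 each). The pseudogene Cyp3a63-ps, no member, was listed at 227 to 431 in day 6 tumors and at 12.1 to 27.4 in YAP1on tumors, low beside these.

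Cyp3a25, a form of adult liver, and its neighbour Cyp3a59 differed less between the tumor groups. Cyp3a25 stood at 9191, 9812, 8163 and 10745 in day 6 tumors, against 3436, 2669, 3961 and 2392 in YAP1on tumors (3.09-fold, or 1.63 on the log2 scale with SE 0.19, limma adjusted p = 1.48e-05). Cyp3a59 stood at 2132, 2398, 2194 and 2624 in day 6 tumors, against 976, 787, 1274 and 802 in YAP1on tumors (2.47-fold, or 1.31 on the log2 scale with SE 0.15, limma adjusted p = 1.44e-05). All day 6 tumors were above all YAP1on tumors for both. Cyp3a13 stood at 5567, 5843, 4913 and 5445 in day 6 tumors, against 1905, 2500, 2679 and 2326 in YAP1on tumors (2.33-fold, or 1.22 on the log2 scale with SE 0.17, limma adjusted p = 7.66e-05).

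Cyp3a11, the main adult form, was the member that was not called. It stood at 9778, 13257, 9558 and 12724 in day 6 tumors, against 22453, 7884, 26262 and 16514 in YAP1on tumors. YAP1on tumor 2 was below every day 6 tumor and the other 3 YAP1on tumors were above them, so the groups overlapped. The log2 fold change was -0.57 (95% interval -1.29 to 0.15, limma adjusted p = 0.255). Without YAP1on tumor 2, Cyp3a11 was called lower in day 6 tumors (log2 fold change -0.93, limma adjusted p = 0.034), and likewise with quantile normalization (-1.07, limma adjusted p = 0.0238).

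**Figure D1:**
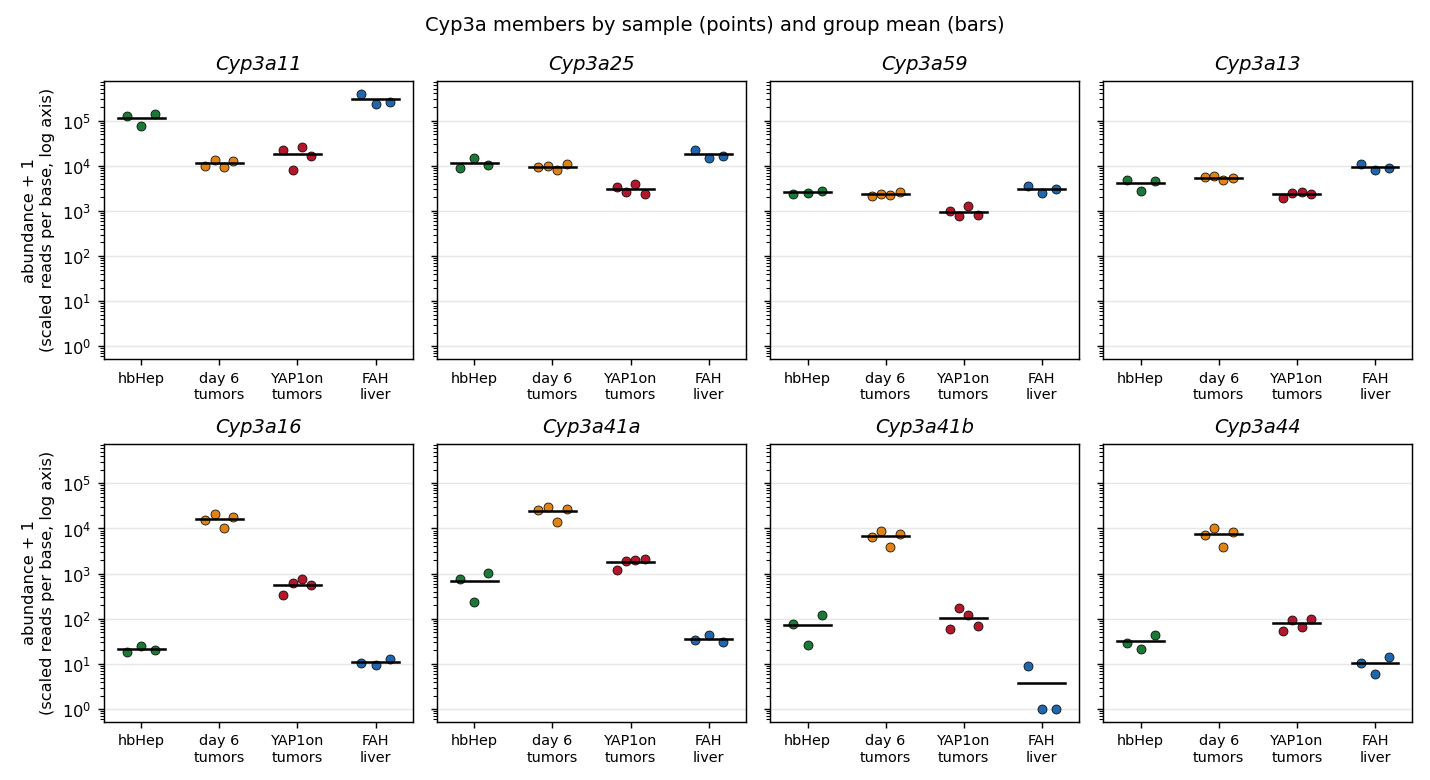
Abundance of each Cyp3a member (scaled reads per base plus 1, log axis) in each sample, with points for tumors or mice and bars for group means, in hbHep, day 6 tumors, YAP1on tumors and FAH liver. In day 6 tumors Cyp3a16, Cyp3a41a, Cyp3a41b and Cyp3a44 lie above all other groups, while Cyp3a11 is at 7884 to 26262 in the tumors, far below hbHep (76100 to 142174) and FAH liver (235074 to 394690).

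The second comparison set hbHep, by the series' title the state reached when YAP1 is inhibited, against YAP1on tumors. Here 4 members were higher and 3 lower, where 28.7% of all genes tested were called higher and 26.5% lower. The members split by kind: Cyp3a11, Cyp3a13, Cyp3a25 and Cyp3a59 were higher in hbHep, and Cyp3a16, Cyp3a41a and Cyp3a44 were lower. The median over the members, 0.07, lay between these sets and close to the median of all genes (-0.03).

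Cyp3a11 stood at 125457, 76100 and 142174 in hbHep mice, which was 6.65-fold above YAP1on tumors (mean 18278 ± 8007, SD, n = 4; log2 fold change 2.73, SE 0.36, limma adjusted p = 1.51e-05). Cyp3a25 stood at 9071, 14868 and 10556 in hbHep (3.68-fold above YAP1on tumors, log2 fold change 1.88, SE 0.21, limma adjusted p = 2.13e-06). Cyp3a59 stood at 2387, 2480 and 2805 in hbHep (2.71-fold, or 1.44 on the log2 scale with SE 0.16, limma adjusted p = 3.38e-06). None of these hbHep values overlapped with YAP1on tumors. Cyp3a13 stood at 4819, 2829 and 4658 in hbHep (1.71-fold above YAP1on tumors, log2 fold change 0.77, SE 0.18, limma adjusted p = 0.00223), a call that was lost with quantile normalization (0.32, limma adjusted p = 0.0663).

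The members of the other set were low in hbHep. Cyp3a16 stood at 17.4, 24.1 and 19.4 in hbHep, against 340 to 748 in YAP1on tumors (log2 fold change -4.69, SE 0.26, limma adjusted p = 1.87e-09). Cyp3a44 stood at 28.7, 20.5 and 42 in hbHep, against 53.7 to 98.7 in YAP1on tumors (log2 fold change -1.35, SE 0.36, limma adjusted p = 0.00494), and this call was lost with quantile normalization (-1.06, limma adjusted p = 0.0606). Both genes were therefore lower in every hbHep mouse than in any YAP1on tumor.

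Cyp3a41a stood at 766, 237 and 1006 in hbHep, against 1208 to 2107 in YAP1on tumors (log2 fold change -1.63, SE 0.39, limma adjusted p = 0.00239). Mouse 2 was the lowest, and without it the log2 fold change was -1.0 (limma adjusted p = 0.00883). With only the first technical library of each mouse it was -2.30 (limma adjusted p = 3.59e-05). The 2 technical libraries of a mouse differed widely for this gene, with 376 and 1157 in mouse 1 and 616 and 1396 in mouse 3, whereas those for Cyp3a11, Cyp3a13, Cyp3a25 and Cyp3a59 were within 1.24-fold of each other. Cyp3a41b stood at 74.2, 25.3 and 121 in hbHep, against 59.1 to 176 in YAP1on tumors. The groups overlapped, and the log2 fold change was -0.63 (95% interval -2.08 to 0.82, limma adjusted p = 0.449).

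Between hbHep and day 6 tumors, 1 member was higher in hbHep and 4 were lower, where 24.1% of all genes were called higher and 21.7% lower. Cyp3a11 was 9.88-fold higher in hbHep than in day 6 tumors (log2 fold change 3.30, SE 0.36, limma adjusted p = 4.49e-06). The 4 lower members were those furthest above YAP1on tumors in day 6 tumors. They were Cyp3a16 (log2 fold change -9.52, SE 0.26, limma adjusted p = 9.32e-13), Cyp3a44 (-7.86, SE 0.36), Cyp3a41b (-6.69, SE 0.68) and Cyp3a41a (-5.36, SE 0.39). Without hbHep mouse 2 the log2 fold change was -6.07 for Cyp3a41b and -4.73 for Cyp3a41a.

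Cyp3a25 and Cyp3a59 were not called between hbHep and day 6 tumors. The log2 fold change between hbHep and day 6 tumors was 0.25 for Cyp3a25 (95% interval -0.18 to 0.69, limma adjusted p = 0.329) and 0.13 for Cyp3a59 (-0.22 to 0.48, limma adjusted p = 0.537). For Cyp3a13 it was -0.44 (95% interval -0.83 to -0.06, limma adjusted p = 0.0584). The Cyp3a13 values of the groups did not overlap, and it was called lower in hbHep without mouse 1 (limma adjusted p = 0.0322), without mouse 3 (limma adjusted p = 0.0425) or with quantile normalization (limma adjusted p = 0.000824).

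**Figure D2:**
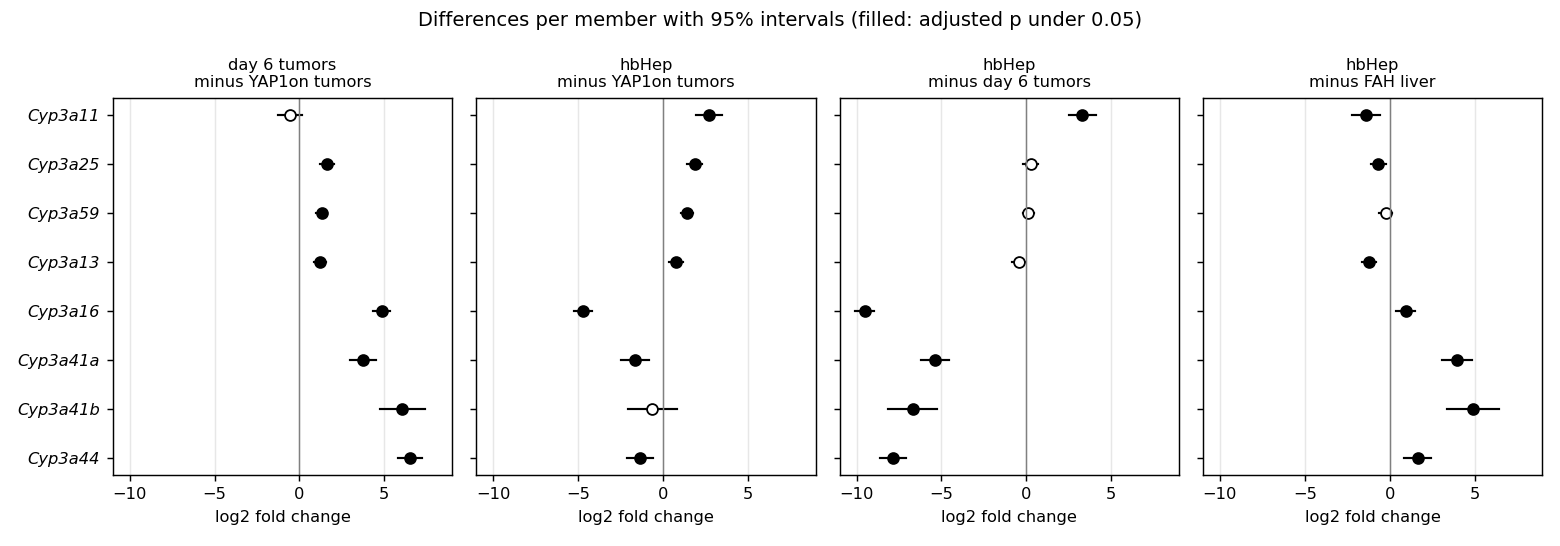
Difference of each Cyp3a member (log2 fold change on log2(abundance + 1), with 95% intervals of the limma fit) in 4 comparisons, filled where the adjusted p was under 0.05. Day 6 tumors lie to the right of YAP1on tumors for 7 members, while hbHep splits the family into Cyp3a11, Cyp3a25, Cyp3a59 and Cyp3a13 on the right and Cyp3a16, Cyp3a41a and Cyp3a44 on the left of YAP1on tumors.

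The comparison of hbHep with FAH liver asked how near hbHep came to liver of mice labelled with the same genotype. By the series' title hbHep cells came from tumor cells, so the mouse's genotype need not be theirs. Cell origin, and NTBC, which the titles name for FAH liver only, cannot be told apart from group here. In hbHep 4 members were higher and 3 lower, where 20.0% of all genes tested were called higher and 17.0% lower. Among the 4, Cyp3a16, Cyp3a41b and Cyp3a44 passed the filter through groups other than FAH liver, so their calls are no support. Cyp3a11 stood at 394690, 235074 and 251920 in FAH liver, above each of the 3 hbHep mice given above (hbHep minus FAH liver, log2 fold change -1.37, SE 0.39, limma adjusted p = 0.0122). That call was lost without hbHep mouse 2 (-1.10, limma adjusted p = 0.0518), without FAH liver mouse 1 (-1.14, limma adjusted p = 0.056) and with quantile normalization (-0.42, limma adjusted p = 0.408).

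Cyp3a13 averaged 4102 ± 1106 in hbHep and 9265 ± 1625 in FAH liver (SD, n = 3 each; log2 fold change -1.20, SE 0.20, limma adjusted p = 0.000216). Cyp3a25 averaged 11498 ± 3011 in hbHep and 17946 ± 3545 in FAH liver (SD, n = 3 each; log2 fold change -0.66, SE 0.22, limma adjusted p = 0.029). The Cyp3a25 call was lost under 8 alternatives, among them leaving out hbHep mouse 1 (-0.50, limma adjusted p = 0.122), hbHep mouse 3 (-0.61, limma adjusted p = 0.0796) or FAH liver mouse 1 (-0.50, limma adjusted p = 0.123). Cyp3a59 averaged 2557 ± 220 in hbHep and 3014 ± 533 in FAH liver, which overlapped (log2 fold change -0.23, 95% interval -0.60 to 0.15, limma adjusted p = 0.342).

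Members of the tumor set were near the floor in FAH liver, and there Cyp3a16, Cyp3a41b and Cyp3a44 passed the filter through the other groups only. Cyp3a41a stood at 32.6, 43.5 and 30.2 in FAH liver, below all 3 hbHep mice (log2 fold change 3.98, SE 0.42, limma adjusted p = 3.61e-06). It was 4.61 without hbHep mouse 2 and 3.31 with the first technical libraries alone. Cyp3a41b was listed at 8.1 in FAH liver mouse 1 and at 0 in mice 2 and 3. Its log2 fold change of 4.90 ranged with the pseudocount and the samples used (2.58 to 7.14; 5.96 without FAH liver mouse 1) and is not a measure of size.

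Cyp3a44 stood at 9.49, 4.84 and 13.6 in FAH liver, below the 3 hbHep mice (log2 fold change 1.65, SE 0.38, limma adjusted p = 0.00344; 1.06 with a pseudocount of 10). Cyp3a16 stood at 9.48, 8.7 and 12.1 in FAH liver, also below the 3 hbHep mice (log2 fold change 0.94, SE 0.27, limma adjusted p = 0.0137). The Cyp3a16 call was lost under 6 alternatives, among them leaving out hbHep mouse 2 (0.82, limma adjusted p = 0.0516) and using either technical library alone (limma adjusted p = 0.0825 and 0.0681). In hbHep mouse 2 the technical libraries held 37.5 and 10.8 for Cyp3a16.

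Day 6 tumors and FAH liver were furthest apart in these low members. In day 6 tumors 4 members were higher and 3 lower than in FAH liver, where 31.8% of all genes were called higher and 30.9% lower. Among the 4, Cyp3a16, Cyp3a41b and Cyp3a44 passed the filter through groups other than FAH liver, so their calls are no support. The log2 fold change was 9.34 for Cyp3a41a (SE 0.39). The log2 fold changes of Cyp3a16 and Cyp3a44 depended on the pseudocount (10.47 for Cyp3a16 and 9.51 for Cyp3a44, against 9.60 and 8.53 with a pseudocount of 10). Cyp3a16 stood at 10304 to 20446 in day 6 tumors and 8.7 to 12.1 in FAH liver. Cyp3a44 stood at 3890 to 10240 in day 6 tumors and 4.84 to 13.6 in FAH liver. Cyp3a41b stood at 3937 to 8780 in day 6 tumors and at 0 to 8.1 in FAH liver. Cyp3a11 was lower in day 6 tumors (log2 fold change -4.67, SE 0.36, limma adjusted p = 5.05e-08; -3.74 with quantile normalization), as were Cyp3a25 (-0.91, SE 0.21, limma adjusted p = 0.00129) and Cyp3a13 (-0.76, SE 0.18, limma adjusted p = 0.00217). With quantile normalization the last pair were no longer called (Cyp3a25 -0.11, limma adjusted p = 0.67; Cyp3a13 -0.08, limma adjusted p = 0.658). Cyp3a59 was at -0.36 (95% interval -0.71 to -0.01, limma adjusted p = 0.0704) and was called lower in day 6 tumors without FAH liver mouse 2 (limma adjusted p = 0.0303), in a fit of these 2 groups alone (limma adjusted p = 0.0378) and with the values as deposited (limma adjusted p = 0.0244).

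YAP1on tumors differed from FAH liver in all 8 members, 4 higher and 4 lower, where 34.6% of all genes were called higher and 33.3% lower. Cyp3a11 (log2 fold change -4.10, SE 0.36), Cyp3a25 (-2.54, SE 0.21), Cyp3a13 (-1.97, SE 0.18) and Cyp3a59 (-1.66, SE 0.16) were lower in YAP1on tumors. With quantile normalization the first 3 stood at -2.66 for Cyp3a11, -1.53 for Cyp3a25 and -1.10 for Cyp3a13. Cyp3a16 (5.63, SE 0.26), Cyp3a41a (5.61, SE 0.39) and Cyp3a44 (2.99, SE 0.36) were higher, with 4.79 for Cyp3a16 and 2.18 for Cyp3a44 at a pseudocount of 10, as was Cyp3a41b, at 59.1 to 176 in YAP1on tumors against 0 to 8.1 in FAH liver. Cyp3a16, Cyp3a41b and Cyp3a44 passed the filter through groups other than FAH liver, so their calls are no support. The log2 fold change of Cyp3a41b ranged from 3.12 to 7.78 with the pseudocount. Among Cyp3a11, Cyp3a13, Cyp3a25, Cyp3a41a and Cyp3a59 the highest limma adjusted p was 3.26e-07, that of Cyp3a59.

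The order of the groups therefore depended on the member. For Cyp3a16, Cyp3a41a and Cyp3a44 it was day 6 tumors, YAP1on tumors, hbHep and FAH liver from high to low, and the neighbours in this order did not overlap. Cyp3a41b had the same order of means, but YAP1on tumors and hbHep overlapped. For Cyp3a11 the order was FAH liver, hbHep, YAP1on tumors and day 6 tumors, of which the last pair overlapped. Cyp3a13 followed the order FAH liver, day 6 tumors, hbHep and YAP1on tumors. Cyp3a25 and Cyp3a59 followed the order FAH liver, hbHep, day 6 tumors and YAP1on tumors, with overlap of hbHep and day 6 tumors for both and of FAH liver with hbHep for Cyp3a59.

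Summed over the 8 members, the family's abundance was 142621, 96583 and 161382 in hbHep, 82175, 100803, 56883 and 92575 in day 6 tumors, 30430, 16656, 37066 and 24860 in YAP1on tumors, and 431368, 260859 and 280309 in FAH liver. Day 6 tumors averaged 83109 ± 19073 and YAP1on tumors 27253 ± 8649 (SD, n = 4 each), a 3.05-fold difference with no overlap. The hbHep mean was 133529 ± 33343 (SD, n = 3), 4.9-fold that of YAP1on tumors and 1.61-fold that of day 6 tumors, and hbHep mouse 2 was below the highest day 6 tumor. FAH liver averaged 324179 ± 93336 (SD, n = 3), and the hbHep mean was 2.43-fold lower. These sums are a description and were not tested. With quantile normalization the log2 ratio of hbHep to FAH liver was -0.39, in place of -1.28.

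The sums of hbHep and day 6 tumors overlapped, but different members made them up. Cyp3a11 held 85 ± 5.33% of the sum in hbHep and 90.5 ± 0.877% in FAH liver (SD, n = 3 each), and 13.9 ± 2.08% in day 6 tumors and 64.6 ± 11.9% in YAP1on tumors (SD, n = 4 each). Cyp3a16, Cyp3a41a, Cyp3a41b and Cyp3a44 together held 0.559 ± 0.216% in hbHep, 64.7 ± 5.69% in day 6 tumors, 10.4 ± 4.98% in YAP1on tumors and 0.0186 ± 0.00421% in FAH liver. Among these 4, Cyp3a41a was the largest in day 6 tumors, with 28.9 ± 3.16% of the sum, followed by Cyp3a16 with 19.2 ± 0.917%. Without Cyp3a11 the sum averaged 18952 ± 1675 in hbHep, 71780 ± 17437 in day 6 tumors, 8975 ± 1262 in YAP1on tumors and 30284 ± 5688 in FAH liver, so that day 6 tumors were then the highest group.

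**Figure D3:**
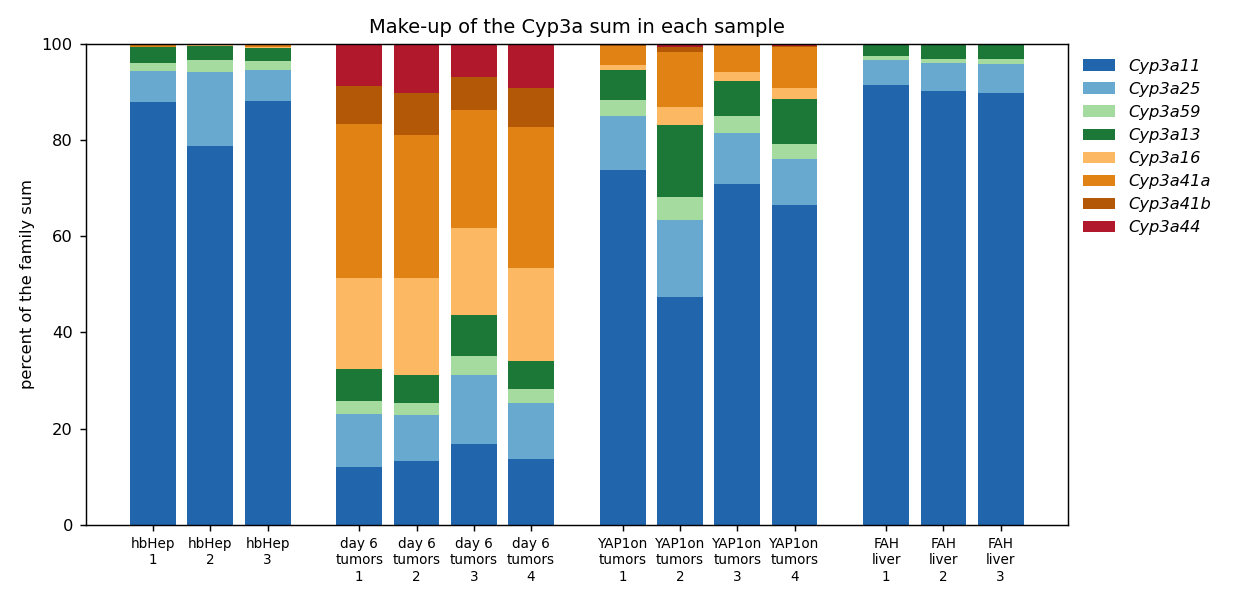
Share of each Cyp3a member in the summed abundance of the 8 members (percent), with 1 bar per sample of hbHep, day 6 tumors, YAP1on tumors and FAH liver. Cyp3a11 takes 78.8 to 88.1% of each hbHep bar and 89.9 to 91.5% of each FAH liver bar, whereas Cyp3a16, Cyp3a41a, Cyp3a41b and Cyp3a44 take 56.4 to 68.9% in day 6 tumors.

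Within groups the members moved together to different degrees. Day 6 tumor 3 was the lowest of its group for 7 members, the exception being Cyp3a59, and tumor 2 was the highest for 6. The spread between the highest and lowest day 6 tumor was 1.19-fold for Cyp3a13 and 1.23-fold for Cyp3a59, but 1.98-fold for Cyp3a16 and 2.63-fold for Cyp3a44. In YAP1on tumors the widest spread was that of Cyp3a11 (3.33-fold), and in hbHep that of Cyp3a41b (4.79-fold) and Cyp3a41a (4.25-fold). The table also held Cyp3a57, no member, at 22.2 to 32.4 in day 6 tumors and below 12 in every other sample.

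Transcripts of the Y chromosome were lower in both tumor groups than in hbHep and FAH liver. Eif2s3y stood at 392 to 595 in hbHep, 1.27 to 6.63 in day 6 tumors, 0.775 to 2.81 in YAP1on tumors and 706 to 940 in FAH liver. Ddx3y stood at 1693 to 2548 in hbHep, 11.7 to 18.6 in day 6 tumors, 4.85 to 29.5 in YAP1on tumors and 2276 to 3440 in FAH liver. Kdm5d was less far apart and present in all tumors. It stood at 269 to 657 in hbHep, 143 to 150 in day 6 tumors, 125 to 174 in YAP1on tumors and 680 to 766 in FAH liver. Uty and Kdm5d were also called higher in hbHep than in either tumor group, with log2 fold changes over YAP1on tumors of 3.98 and 1.70 (limma adjusted p = 5.99e-10 and 2.6e-05). The limma adjusted p of these 4 genes was 0.231 to 0.986 between day 6 and YAP1on tumors, and 0.092 to 0.618 between hbHep and FAH liver. For Cyp3a16, Cyp3a41a, Cyp3a41b and Cyp3a44, a difference of sex between the tumor mice and the others cannot be told apart from the difference between tumors and liver. Between day 6 and YAP1on tumors Eif2s3y had a log2 fold change of 0.61 (SE 0.35) and Ddx3y one of -0.18 (SE 0.41). The part of sex in the differences of the members was not tested.

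Other genes known to be female-biased in mouse liver, 26 in number and none of them a member, were counted in the same comparisons. In day 6 tumors 16 were higher and 1 lower than in YAP1on tumors, where 12.8% of all genes were called higher and 10.9% lower. Against FAH liver 21 were higher and 3 lower in day 6 tumors, where the shares of all genes were 31.8% and 30.9%. Cyp2b9, another P450, averaged 3846 ± 1578 in day 6 tumors and 237 ± 79.9 in YAP1on tumors (SD, n = 4 each; log2 fold change 3.97, SE 0.48, limma adjusted p = 1.99e-05), and was at most 1.28 in hbHep and 4.35 in FAH liver. Cyp2c69 averaged 12256 ± 3015 in day 6 tumors and 484 ± 199 in YAP1on tumors (log2 fold change 4.73, SE 0.46, limma adjusted p = 2.47e-06). The sulfotransferase Sult3a1 averaged 289 ± 84.8 in day 6 tumors and 1.01 ± 0.333 in YAP1on tumors (log2 fold change 7.13, SE 0.67, limma adjusted p = 1.83e-06). The list's median log2 fold change was 1.21 in day 6 over YAP1on tumors and 2.88 over FAH liver.

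The list was mixed in hbHep. There 5 of the 26 were higher and 12 lower than in day 6 tumors, and 12 were higher and 3 lower than in FAH liver. The shares of all genes called were 24.1% higher and 21.7% lower against day 6 tumors, and 20.0% and 17.0% against FAH liver. Cyp2c69 was at 3.58 to 33.6 in hbHep, against 14.2 to 16.3 in FAH liver, with no call between these groups (log2 fold change -0.35, limma adjusted p = 0.64), whereas Sult2a1, which sulfates steroids and bile acids, averaged 145 ± 111 in hbHep and 4.64 ± 3.44 in FAH liver (SD, n = 3 each; log2 fold change 4.65, SE 0.58, limma adjusted p = 1.85e-05).

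Of male-biased liver genes 25 were tested. Of these, 18 were higher and 4 lower in hbHep than in day 6 tumors (24.1% and 21.7% of all genes). In day 6 tumors 1 was higher and 23 lower than in FAH liver (31.8% and 30.9% of all genes). Cyp4a12a, a male-specific fatty acid hydroxylase, stood at 4776 to 14015 in hbHep, 1.55 to 2.69 in day 6 tumors, 3.88 to 11.4 in YAP1on tumors and 26574 to 30451 in FAH liver. Against FAH liver, hbHep had 2 male-biased genes higher and 20 lower (20.0% and 17.0% of all genes). Between day 6 and YAP1on tumors, 12 male-biased genes were higher and 2 lower in day 6 tumors (12.8% and 10.9% of all genes). Their median log2 fold change there was 0.84. Both lists leaned the same way in hbHep against YAP1on tumors, where 28.7% of all genes were called higher and 26.5% lower. There 21 male-biased genes were higher and 3 lower, and 13 female-biased genes were higher and 9 lower.

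Of 12 genes that carry or answer growth hormone signals, 8 were higher and 0 lower in day 6 than in YAP1on tumors, where 12.8% of all genes were called higher. The other 4, Cish, Cux2, Bcl6 and Jak2, were not called. Prlr, the prolactin receptor, averaged 4533 ± 574 in day 6 tumors and 995 ± 123 in YAP1on tumors (SD, n = 4 each; log2 fold change 2.19, SE 0.13, limma adjusted p = 3.78e-08). Ghr, the growth hormone receptor, had a log2 fold change of 1.82 (SE 0.17, limma adjusted p = 1.82e-06). In hbHep 1 of the 12 was higher and 7 were lower than in day 6 tumors (24.1% and 21.7% of all genes). Cux2, a repressor known from female liver, averaged 60.1 ± 22.1 in hbHep (SD, n = 3) and 518 ± 44.3 in day 6 tumors (SD, n = 4; log2 fold change -3.16, SE 0.27, limma adjusted p = 3.26e-07). It was at 321 to 471 in YAP1on tumors and 39.2 to 86.4 in FAH liver.

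**Figure D4:**
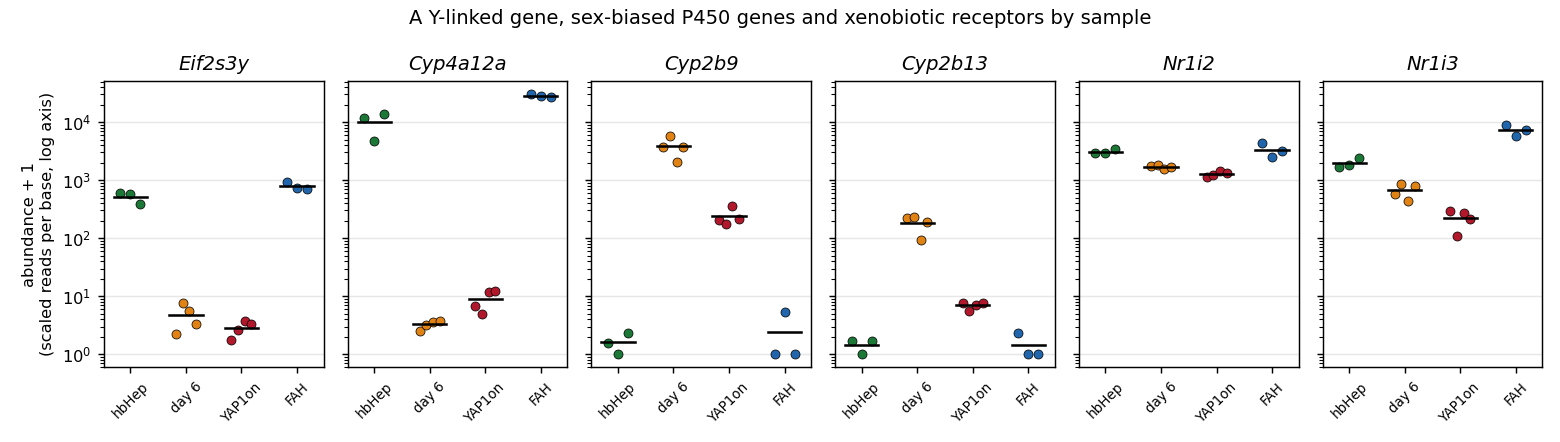
Abundance (scaled reads per base plus 1, log axis) by sample of Y-linked Eif2s3y, male-biased Cyp4a12a, female-biased Cyp2b9 and Cyp2b13 and the receptors Nr1i2 (PXR) and Nr1i3 (CAR) in hbHep, day 6 tumors, YAP1on tumors and FAH liver; bars are group means. Eif2s3y and Cyp4a12a are low in all 8 tumors and high in hbHep and FAH liver, and Cyp2b9 and Cyp2b13 are highest in day 6 tumors.

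The receptors that induce Cyp3a genes had their lowest means in YAP1on tumors. Nr1i3, which encodes CAR, stood at 1696 to 2374 in hbHep, 434 to 844 in day 6 tumors, 108 to 292 in YAP1on tumors and 5828 to 8932 in FAH liver, with no overlap between groups. Its log2 fold change was 1.63 in day 6 over YAP1on tumors (SE 0.28, limma adjusted p = 0.000486), 3.22 in hbHep over YAP1on tumors (SE 0.30, limma adjusted p = 4.36e-07) and -1.91 in hbHep against FAH liver (SE 0.32, limma adjusted p = 0.000282). Nr1i2, which encodes PXR, averaged 3083 ± 263 in hbHep and 1286 ± 136 in YAP1on tumors (log2 fold change 1.26, SE 0.16, limma adjusted p = 7.39e-06). It was not called between day 6 and YAP1on tumors (0.40, SE 0.14, limma adjusted p = 0.0552) or between hbHep and FAH liver (-0.08, SE 0.17, limma adjusted p = 0.735). Hnf4a was called higher in day 6 than in YAP1on tumors by a small amount (0.46, SE 0.16, limma adjusted p = 0.0459).

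Of 19 tested regulators of the family, 8 were higher and 0 lower in day 6 than in YAP1on tumors. Calls among all genes tested came to 12.8% higher and 10.9% lower there. Set against YAP1on tumors, hbHep had 9 regulators higher and 2 lower, where all genes tested gave 28.7% and 26.5%. Set against FAH liver, it had 2 higher and 8 lower, where all genes tested gave 20.0% and 17.0%. Nr0b2, which encodes the inhibitory partner SHP, was higher in day 6 tumors (1303 ± 193) than in YAP1on tumors (349 ± 52.5, SD, n = 4 each). Its log2 fold change was 1.90 (SE 0.15, limma adjusted p = 4.16e-07). Foxa2, a forkhead factor of hepatocytes, was higher in day 6 tumors as well (0.97, SE 0.16, limma adjusted p = 0.000398). Onecut1, another liver factor, was lower in hbHep than in FAH liver (-2.11, SE 0.48, limma adjusted p = 0.00287).

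P450 enzymes need electrons and heme, and 14 genes for both were tested. Against YAP1on tumors, hbHep had 13 of 14 genes higher and 0 lower, where all genes tested gave 28.7% and 26.5%. Against day 6 tumors, hbHep had 11 of the 14 higher and 0 lower, where all genes tested gave 24.1% and 21.7%. Hmox1, which breaks heme down, was among the 13. In day 6 tumors 7 were higher and 0 lower than in YAP1on tumors (12.8% and 10.9% of all genes). Por, the oxidoreductase that feeds all these P450s, averaged 8220 ± 1565 in hbHep, 4177 ± 633 in day 6 tumors, 2053 ± 373 in YAP1on tumors and 5091 ± 951 in FAH liver. It was higher in hbHep than in FAH liver (log2 fold change 0.69, SE 0.20, limma adjusted p = 0.0119). Pgrmc1, a heme-binding partner of P450s, averaged 48580 ± 1991 in hbHep and 88648 ± 18993 in FAH liver (SD, n = 3 each; log2 fold change -0.85, SE 0.20, limma adjusted p = 0.00344). Alad, which makes the pyrrole unit of heme, averaged 16605 ± 2478 in hbHep and 5565 ± 306 in day 6 tumors (log2 fold change 1.57, SE 0.15, limma adjusted p = 1.35e-06).

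Other genes known to answer PXR or CAR were mostly higher in day 6 tumors and hbHep than in YAP1on tumors. Of 30 tested, 17 were higher and 3 lower in day 6 than in YAP1on tumors (12.8% and 10.9% of all genes). In hbHep 23 were higher and 3 lower than in YAP1on tumors (28.7% and 26.5% of all genes). In hbHep against FAH liver 11 were higher and 9 lower (20.0% and 17.0% of all genes). Cyp2a5, which oxidises nicotine and coumarin, averaged 127921 ± 29511 in hbHep and 1851 ± 834 in YAP1on tumors (log2 fold change 6.21, SE 0.35, limma adjusted p = 2.59e-09), near its level in FAH liver (107333 ± 28654). Cyp2b10, the usual readout of CAR, averaged 16.7 ± 11.5 in hbHep and 526 ± 71.1 in FAH liver (SD, n = 3 each; log2 fold change -5.12, SE 0.53, limma adjusted p = 3.49e-06). Gsta1 went against the list at day 6 (-4.90, SE 0.61, limma adjusted p = 2.9e-05). Cyp2b9, Cyp2b13, Sult2a1 and Sult1e1 stand in this list and in the female-biased one, and Cux2 stands in the female-biased list and in that of growth hormone.

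Markers of cell types also differed between the groups. The sum of 11 hepatocyte markers was 551864 to 784058 in hbHep, 657620 to 825109 in day 6 tumors, 255495 to 434161 in YAP1on tumors and 1419168 to 1778083 in FAH liver. The sum of 7 markers of cholangiocytes and progenitors ran the other way, at 1660 to 1840 in hbHep, 3409 to 8550 in day 6 tumors, 29820 to 39575 in YAP1on tumors and 1143 to 1228 in FAH liver. Of the hepatocyte markers, 8 were higher and 0 lower in day 6 than in YAP1on tumors. All genes tested gave 12.8% and 10.9% in that comparison. Set against FAH liver, hbHep had 0 of these markers higher and 8 lower, where all genes tested gave 20.0% and 17.0%. Set against day 6 tumors, it had 4 higher and 3 lower, where all genes tested gave 24.1% and 21.7%. No marker of these lists was at 0 throughout a group, and the part of cell makeup in the differences of the members was not tested.

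Among other cells, the macrophage sum (8 markers) was 5238 to 14009 in hbHep, 7038 to 9418 in day 6 tumors, 10602 to 15383 in YAP1on tumors and 2704 to 4864 in FAH liver. The sum for T, NK and B cells (7 markers) was 205 to 266 in hbHep, 489 to 638 in day 6 tumors, 235 to 343 in YAP1on tumors and 77.3 to 108 in FAH liver, highest where Cyp3a16, Cyp3a41a, Cyp3a41b and Cyp3a44 were highest, and its part in their differences was not tested. Sums for endothelial cells (6 markers) were 3467 to 8308 and those for stellate cells and fibroblasts (7 markers) 3187 to 11286 over all samples. Markers of fetal liver and hepatoblastoma (6 tested) summed to 3655 to 23537 in hbHep, 632 to 742 in day 6 tumors, 3344 to 8632 in YAP1on tumors and 277 to 312 in FAH liver. The intestine also makes Cyp3a RNA. Of 6 enterocyte markers, Alpi was at 0 in all hbHep mice and all tumors, Cdx2 was at 0 in all hbHep mice and at most 4.35 elsewhere, and Fabp2 (207 to 1339) and Lgals4 (36.2 to 428) were present in every sample. The others, Vil1 and Sis, were not at 0 throughout any group, and Sis was too low to be tested. Vil1 was called higher in hbHep than in day 6 tumors, YAP1on tumors and FAH liver.

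Open chromatin was read at the start of each member, with 1 library per stage and so with no test. An interval of the deposited list lay over the start of 0 of 8 members in the YAP1on tumor (12.8% of 26994 RefSeq starts), 6 at day 14 (35.5%), 4 at day 33 (37.2%), 4 at day 64 (36.1%) and 3 in WT liver (33.4%). Intervals of the YAP1on list had a median width of 21 bases, against 61 to 71 in the other lists, so its count over a start is not comparable with theirs. Within 1 kb of the start, 3 members had an interval in the YAP1on tumor (55.0% of all starts), 8 at day 14 (56.4%), 4 at day 33 (54.4%), 4 at day 64 (55.5%) and 5 in WT liver (54.8%). Intervals of at least 200 bases lay over the start of 0 members in every library, against 0% of all starts in the YAP1on tumor, 1.84% at day 14, 2.14% at day 33, 2.14% at day 64 and 1.82% in WT liver.

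The members of adult liver had open intervals at each stage off YAP1. Within 1 kb of the Cyp3a11 start the intervals covered 0 bases in the YAP1on tumor, 985 at day 14, 823 at day 33, 1386 at day 64 and 83 in WT liver. Cyp3a11 was thus bare of intervals in the YAP1on tumor and nearly so in WT liver. Around the Cyp3a25 start they covered 217 bases in the YAP1on tumor, 1192 at day 14, 1162 at day 33, 1050 at day 64 and 945 in WT liver. Around the Cyp3a13 start they covered 248 bases in the YAP1on tumor, 1242 to 1453 at the 3 stages off YAP1 and 1194 in WT liver, and around that of Cyp3a59 124 bases in the YAP1on tumor, 632 to 821 off YAP1 and 429 in WT liver. For Cyp3a25 and Cyp3a13 WT liver was nearer to the stages off YAP1 than to the YAP1on tumor, and for Cyp3a59 it lay between them. The narrower intervals of the YAP1on list also lower the bases covered. At days 14, 33 and 64 one of the Cyp3a11 intervals lay over the start itself.

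The 4 members that were high in day 6 tumors had intervals near their starts at day 14 and almost nowhere else. The day 14 list was also the longest, with 1023760 intervals over 74.3 megabases. The lists covered 59.8 megabases at day 33, 57.9 at day 64, 37.9 in WT liver and 19.7 in the YAP1on tumor. Stage and size of the list cannot be told apart here. At day 14 intervals covered 262 bases within 1 kb of the Cyp3a44 start, 215 of Cyp3a16, 24 of Cyp3a41b and 22 of Cyp3a41a. The interval lay over the start itself for Cyp3a44 and Cyp3a41b. In the YAP1on tumor, at day 33 and at day 64 there was none within 1 kb of any of the 4, and the nearest was 4324 to 4757 bases away. In WT liver the 1 interval was of 10 bases near Cyp3a16. Reads of near-identical copies can be hard to place, as the promoters printed above show, and no source used here says how such reads were treated.

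The same libraries differed at Y-linked genes. The YAP1on and day 14 lists had no interval within 1 kb of the start of Ddx3y, Eif2s3y, Kdm5d or Uty, while at days 33 and 64 and in WT liver all 4 genes had intervals there, covering 233 to 871 bases. Over the whole Y chromosome the lists did not divide this way, with 0.853% of all intervals on it in the YAP1on tumor, 1.59% at day 14, 0.361% at day 33, 0.659% at day 64 and 0.711% in WT liver. The library with intervals at Cyp3a16, Cyp3a41a, Cyp3a41b and Cyp3a44 was therefore one without intervals at these Y-linked starts, and at these 4 members the stage and the sex of the mouse cannot be told apart.

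**Figure D5:**
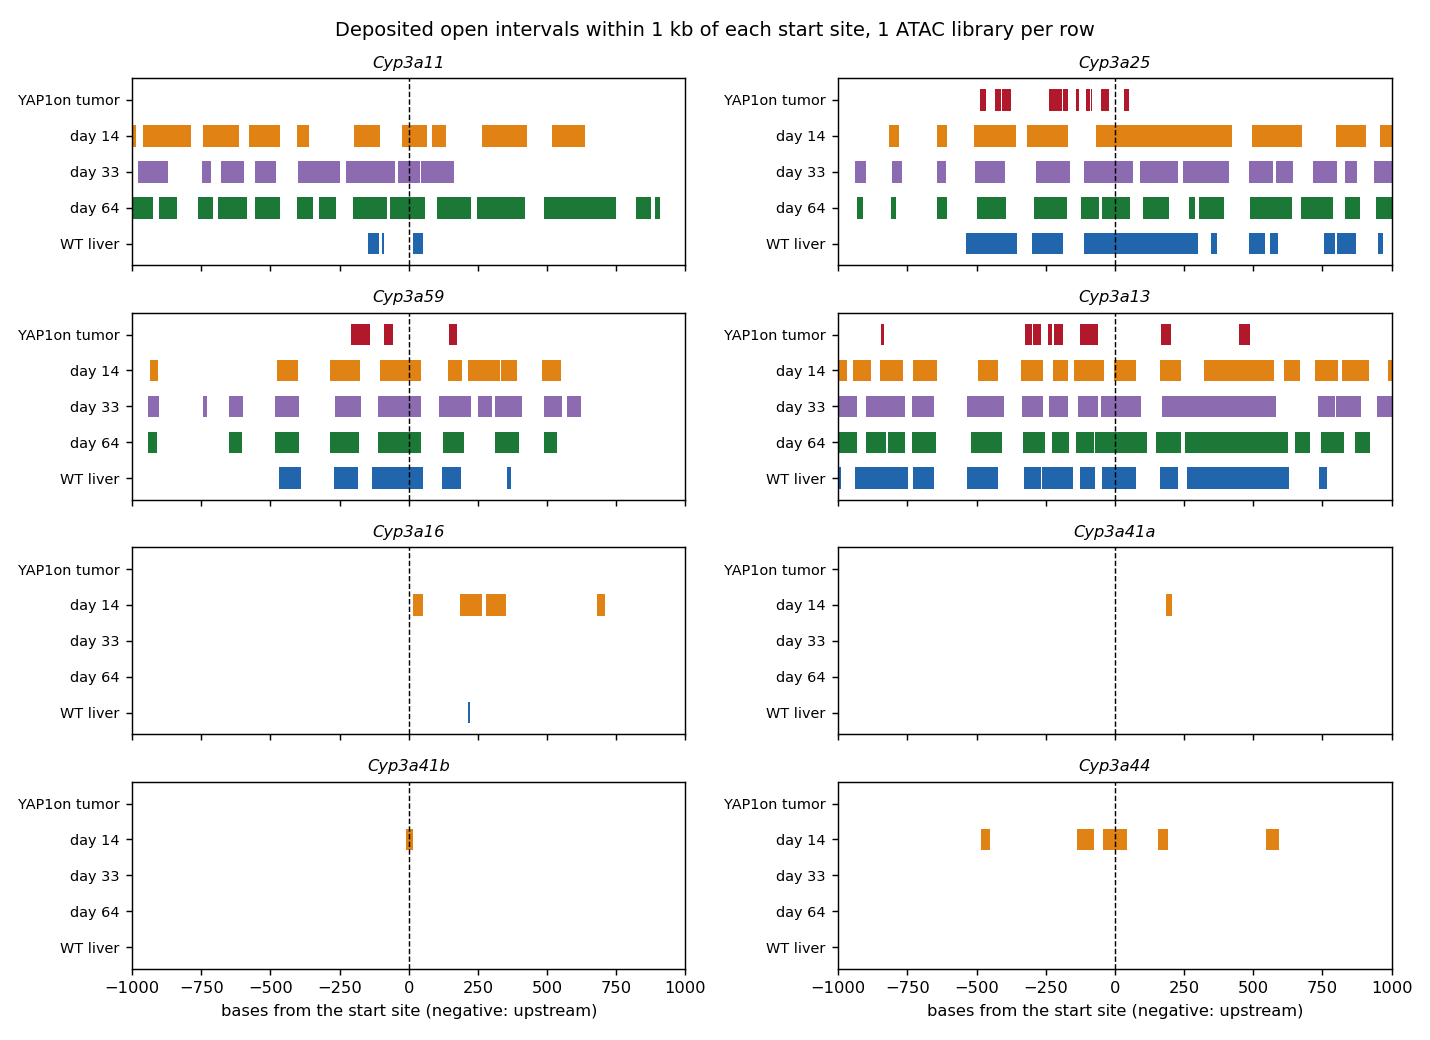
Deposited ATAC intervals (blocks) within 1 kb of the start of each Cyp3a member, by bases from the start, in YAP1on tumor, days 14, 33 and 64 off YAP1 and WT liver, 1 library each. Cyp3a11, Cyp3a25, Cyp3a59 and Cyp3a13 have blocks at every stage off YAP1, whereas Cyp3a16, Cyp3a41a, Cyp3a41b and Cyp3a44 have them at day 14, apart from 10 bases at Cyp3a16 in WT liver.

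The genes whose pattern over the 14 samples was most like that of the members, by Pearson's r of log2(abundance + 1) among 17667 genes, differed between the sets. The samples share their group differences, so r describes likeness and was not tested. Nearest to Cyp3a16 were Tmem254b, Cyp2c69 and BC005537 (0.979 each), to Cyp3a44 Cyp2b13 (0.978), to Cyp3a41a Tnfaip8l1 (0.979) and to Cyp3a41b Cd164 (0.967). Nearest to Cyp3a11 were 1810055G02Rik (0.985), Gm10382 (0.977) and Gstp1 (0.976). Asgr1, which encodes a subunit of the asialoglycoprotein receptor of hepatocytes, was nearest to both Cyp3a25 (0.982) and Cyp3a59 (0.974). Ces1b (0.988) and Ces2a (0.987), carboxylesterases of liver, were nearest to Cyp3a13. For the family sum they were Pbld2 and Hibadh (0.987 each) and Prodh2 (0.986).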

How the data were processed

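RNA of 17 libraries was analysed. The authors deposited a signal per gene and library, read here as scaled reads per base and for which the submitters' processing notes name kallisto 0.45.0, sleuth, bcl2fastq and the GRCm38.p6 build. Of 36555 Ensembl genes 35912 matched a symbol. Only 57.4 to 69.4% of low values were whole multiples of 1 read (within 0.02), so reads were not recovered, depth is unknown and no count model was used. Each library was scaled by its median-of-ratios factor (0.9585 to 1.095), and both technical libraries of an hbHep mouse were averaged to 1 sample, which left 14.

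Genes that reached an abundance of 10 in 3 or more samples were tested (17958 genes). Tests were two-sided with limma 3.58.1 under R 4.3.3 (lmFit, then eBayes with its trend option), on log2(abundance + 1), with the 4 groups in 1 fit and no covariates. On simulated data for day 6 against YAP1on tumors the script recovered 83% of 2-fold and 99% of 4-fold changes (100 genes each of 17958), with 13 false calls. The changed genes were drawn from those well above the floor in YAP1on tumors, with independent noise in each sample. These rates thus do not cover low genes or tumors that share a mouse.

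The ATAC interval lists were deposited by the authors for each library. The submitters' processing notes name the mm10 build and cutadapt, BWA, Picard, SAMtools and bcl2fastq. Which program called intervals, and whether read ends were shifted, is not given in the sources used here. Overlaps of at least 1 base with RefSeq starts were counted. Promoters are from RefSeq (GRCm38.p6), aligned in pairs with Biopython 1.88. The genes named by the text are all members and, per list and comparison, at most the 3 called genes with the largest change, with Nr1i2, Nr1i3, Hnf4a, Por and the Y-linked genes. The members and lists were chosen with earlier results of these data known. The alternatives were other pseudocounts (10 and 0.1), no filter, values as deposited, quantile normalization, no trend, 2 groups alone, either technical library, the replicate block and each sample left out. Xist and H19 were not analysed here.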

Additional observations from a re-analysis of the deposited data

How the results depend on the processing

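Of 816 values of single members recomputed under the alternatives, 787 kept their side of the threshold, 21 lost the call, 8 gained one and no called value reversed; 4 of the 787, all uncalled values with quantile normalization (Cyp3a25 in 1 and Cyp3a59 in 3 comparisons), changed sign. The widest moves of a member were those of Cyp3a41b against FAH liver with the pseudocount (9.05 to 13.85 for day 6 tumors). The family sum moved beyond the spread between samples with quantile normalization, its log2 ratio becoming 1.16 for day 6 over YAP1on tumors (1.61 in the report's setting), 1.84 for hbHep over YAP1on tumors (2.29), -0.39 for hbHep over FAH liver (-1.28), -1.06 for day 6 tumors over FAH liver (-1.96) and -2.22 for YAP1on tumors over FAH liver (-3.57), and 4 in place of 7 members were called between hbHep and FAH liver; the cause was not tested. Leaving out 1 sample at a time, the sum's log2 ratio was 1.43 to 1.79 for day 6 over YAP1on tumors, 2.12 to 2.48 for hbHep over YAP1on tumors, 0.53 to 0.87 for hbHep over day 6 tumors, -1.44 to -1.02 for hbHep over FAH liver, -2.1 to -1.7 for day 6 tumors over FAH liver and -3.76 to -3.31 for YAP1on tumors over FAH liver. The number of members called was 7 to 8, 7 to 7, 5 to 6, 5 to 7, 7 to 8 and 8 to 8 in the same order. Counting ATAC intervals within 1 kb of a start gave 3 members in the YAP1on tumor and 5 in WT liver, in place of 0 and 3 over the start itself. With intervals of at least 200 bases, which 0 to 1.68% of each list reach, the count was 0 at day 14, at day 33, at day 64 and in WT liver. The labels number the samples of each group, but same-numbered samples did not deviate together (correlations -0.23 to 0.19), so the numbers pair nothing. With the number as a replicate block 7, 7, 5, 6, 7 and 8 members were called in that order of comparisons; the lost call was Cyp3a25 between hbHep and FAH liver (log2 fold change -0.66, limma adjusted p = 0.0584). As deposited, with no rescaling, the median log2 fold change of all genes was -0.08 for day 6 tumors over FAH liver (0.04 after rescaling), and no member changed direction. Since the reads behind the values are unknown, levels near 10, as for Cyp3a16, Cyp3a41b and Cyp3a44 in FAH liver, cannot be given a counting error.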
